A study of Mus musculus with 62 samples.

Results

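The cortex of mice that had received 10 daily saline injections was compared with the cortex of mice that had received 1, both taken 4 h after the last injection, so the comparison follows a history of handling and injection in which no animal received ethanol. The libraries of each group were taken by their labels, and the contrast was chosen with earlier results of these data known. Of the 62 libraries in the series, 6 belong to the comparison: acute saline (AP) replicates 2, 4 and 6, and chronic saline (CP) replicates 3, 5 and 6. All were adult male C57BL/6J mice of 8 to 10 weeks, injected i.p., group-housed and killed by cervical dislocation, and each library came from 1 mouse. The series was built to follow ethanol in 5 brain regions, and saline served there as the control. The other libraries used here are 3 cortices after 1 and 3 after 10 injections of ethanol (AE and CE, 2 g/kg as a 20% solution), and 3 dorsal hippocampi (dHPC) after 1 and 3 after 10 saline injections. The design has no uninjected mice, and the AP and CP mice are different animals, so the number of injections, the day of the last injection and anything else that set the 2 sets of mice apart cannot be told apart. Per-library values are given below in the order AP 2, 4 and 6, then CP 3, 5 and 6.

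Handling, restraint and an i.p. injection are mild stressors for a mouse. Synaptic activity and arousal switch on immediate early genes within minutes, many of them transcription factors (Fos, the Egr family), and a slower set of genes for secreted and synaptic proteins follows over hours (Bdnf, Homer1). The corticosterone released from the adrenal gland binds the glucocorticoid receptor, which enters the nucleus and raises genes such as Fkbp5, Sgk1, Tsc22d3 and Cdkn1a in neurons, glia and vessels. With a familiar, repeated stressor both the hormone surge and the immediate early gene response are known to decline in many settings.

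The AP libraries held 53021253, 56467862 and 55253136 gene counts and the CP libraries 44603391, 54072243 and 52293876. Levels are given as CPM, the counts scaled to library size after TMM normalization, and differences as log2 fold changes of CP over AP from edgeR's quasi-likelihood fit. The labelled tissue showed its markers: the summed level of 14 cortical layer genes was 771 to 968 CPM in these 6 libraries against 500.1 to 638 CPM in dHPC, and the summed level of 6 dentate granule cell genes was 16.6 to 22.4 CPM here against 251 to 408 CPM in dHPC. Libraries differed in what else they held. AP 6 had the most choroid plexus RNA (summed level of 9 genes 9.57, 30.2 and 128 CPM in AP and 13.5, 16.4 and 14.1 CPM in CP), and CP 3 the least myelin RNA (15 genes, 2344, 2071 and 2253 CPM in AP and 1280, 2763 and 2317 CPM in CP), and the part of either in the results below was not tested. In pieces of tissue, fewer cells of a type and less RNA per cell cannot be told apart.

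The comparison of 10 with 1 saline injections gave very few single-gene differences, all of them lower. Of 25911 genes tested, 2 fell (0.00772%) and 0 rose (0%) at a false discovery rate (FDR, Benjamini-Hochberg) of 0.1. Without adjustment, 964 genes (3.72%) were lower and 884 (3.41%) higher at a p under 0.05, and in 1625 (6.27%) and 1699 (6.56%) every CP library lay below or above every AP library. DESeq2, the tool of the study itself, made 118 lower (0.455%) and 55 higher (0.212%) calls, and all 173 had an edgeR p under 0.05. The median log2 fold change over all genes was 0.0018, with 12829 genes (49.5%) lower and 13082 (50.5%) higher.

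Cdkn1a was the first of the genes that fell. It encodes p21, an inhibitor of cyclin-dependent kinases that both p53 and the glucocorticoid receptor can induce, and it lies at chr17:29309950-29319696 on the plus strand (count table coordinates, GRCm39). It was measured at 16.7, 15.5 and 16.6 CPM in AP and 10.4, 8.49 and 9.00 CPM in CP. Every CP library lay below every AP library, and the spread within each group was small beside the gap. The mean went from 16.3 ± 0.685 to 9.30 ± 0.992 CPM (SD, n = 3), 42.8% lower, a log2 fold change of -0.81 ± 0.10 (SE, edgeR FDR 0.0886, DESeq2 FDR 1.04e-08).

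Klf10, a zinc-finger transcription factor induced early by TGF-beta and other growth signals, at chr15:38291707-38300950 on the minus strand, was the other. Its level was 41.6, 44.5 and 50.8 CPM in AP and 29.5, 24.9 and 27.5 CPM in CP, again without overlap. The mean went from 45.6 ± 4.75 to 27.3 ± 2.30 CPM (SD, n = 3), 40.3% lower, with a log2 fold change of -0.74 ± 0.092 (SE, edgeR FDR 0.0886, DESeq2 FDR 6.27e-09). Exons of other genes lie opposite 753 bases of Cdkn1a and 62 bases of Klf10, and with a library kit that does not keep strand, reads of the overlaps cannot be assigned to 1 gene.

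Both calls were lost, at an edgeR FDR of up to 0.295, without AP replicate 4, CP replicate 5 or CP replicate 6. The number of called genes was 26 without AP replicate 2, 17 without AP replicate 6 and 169 without CP replicate 3, each time with Cdkn1a and Klf10 among them, and 0, 0 and 3 without AP 4, CP 5 and CP 6. The log2 fold change stayed between -0.89 and -0.75 for Cdkn1a and between -0.80 and -0.66 for Klf10.

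The next 8 genes of the lower side by unadjusted p, among those with at least 10 counts on average and no overlap of the groups, each had an edgeR FDR of 0.134 and are given as values only. Arc, Sik1 and Homer1 among them are neuronal activity genes. Arc, which codes for a capsid-forming protein that acts at spines in AMPA receptor endocytosis, stood at 318, 468 and 533 CPM in AP and 198, 90.0 and 144 CPM in CP, a log2 fold change of -1.61 ± 0.25. Sik1, a salt-inducible kinase that restrains CREB co-activators, stood at 15.2, 23.7 and 29.6 and 10.1, 7.05 and 8.74 CPM, or -1.41 ± 0.21. Homer1, a postsynaptic scaffold, stood at 251, 213 and 288 and 167, 169.6 and 159 CPM, or -0.60 ± 0.094. In all 3 the highest CP library was below the lowest AP library.

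Klf2, a flow-responsive transcription factor of endothelium, was at 12.3, 12.2 and 14.9 CPM in AP and 8.40, 6.20 and 5.39 CPM in CP, a log2 fold change of -0.98 ± 0.16. Arl4d, a small GTPase of the ARF family, was at 21.9, 21.4 and 25.5 CPM and 15.5, 13.3 and 14.9 CPM, or -0.66 ± 0.10. The lncRNA Gm50394 (log2 fold change -1.43 ± 0.21) lies on the minus strand at chr19:53516851-53518086, with 555 of its exon bases opposite exons of other genes, and the start of Dusp5 on the plus strand, at chr19:53517540-53530862, is within it, so its reads and those of Dusp5 cannot be told apart. Xlr3b and Xlr3c, X-linked genes of 1 lymphocyte-regulated family with near-identical copies, had the largest log2 fold changes of the 8, -3.38 ± 0.48 and -3.66 ± 0.56, and their levels are uncertain because read pairs that map to several copies were counted for each. Xlr3b went from 6.41, 4.70 and 2.98 CPM in AP to 0.357, 0.111 and 0.876 CPM in CP.

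On the higher side no gene passed the test. The 10 smallest p-values, by the same rule, belonged to Gm38102, Zkscan2, AI480526, L3mbtl1, Angpt1, Neil2, Cdc25b, Hps1, Zfp512b and Trpm4, with log2 fold changes of 0.31 to 0.85. Zkscan2, a zinc-finger and SCAN domain protein, stood at 17.7, 19.3 and 16.6 CPM in AP and 27.8, 24.7 and 25.5 CPM in CP, a log2 fold change of 0.54 ± 0.085 (edgeR FDR 0.134). Angpt1, the angiopoietin ligand of the endothelial receptor Tek, stood at 1.70, 1.61 and 1.63 CPM and 3.02, 2.49 and 3.43 CPM, or 0.85 ± 0.17 (edgeR FDR 0.256). Gm38102 (0.78 ± 0.12) and AI480526 (0.77 ± 0.12) are lncRNAs on opposite strands of the same stretch of chromosome 5. Because the kit does not keep strand, reads of 1 RNA can be counted for either gene. They are therefore not separate observations.

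**Figure D1:**
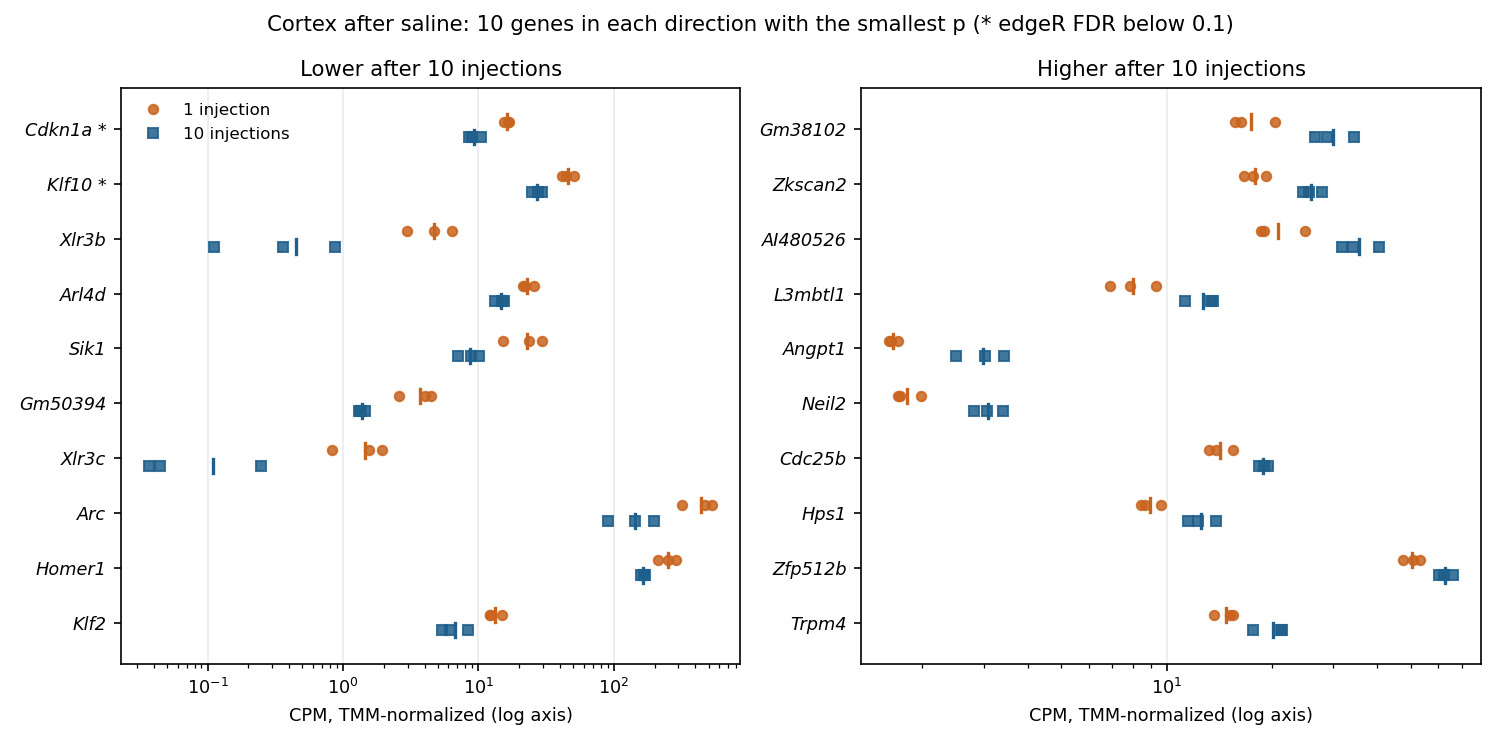
Level of each gene named by the rule of smallest p in the 6 cortex libraries, in CPM on a log axis, with AP and CP libraries as separate points. In the genes on the lower side all 3 CP points sit below the 3 AP points, in those on the higher side above them, and Cdkn1a and Klf10 are the 2 that passed the edgeR test.

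The cyclic AMP response element (CRE, TGACGTCA), the serum response factor site (CArG box) and the glucocorticoid response element (GRE, GNACANNNTGTNC) are the textbook sites of the activity and stress hormone pathways. Promoters are shown for 4 genes, which were picked by hand and do not stand for the lower genes as a whole. The sequences are the 250 bases before the start in RefSeq on GRCm38.p6, searched on both strands, with matches in capitals. Only a single start per gene was searched. Cdkn1a has isoforms that start at 29309953 (Cdkn1a-202) and at 29312743 (Cdkn1a-201) in count table coordinates, so its result does not cover every start. Arl4d (chr11:101665291-101665540, plus strand) holds a CRE 26 bases upstream, Dusp5 (chr19:53528895-53529144, plus strand) holds CArG boxes at 82 and 72 bases, Mt1 (chr8:94178839-94179088, plus strand) holds a GRE at 94 bases, and Cdkn1a (chr17:29090729-29090978, plus strand) holds none of the 3.
Cdkn1a: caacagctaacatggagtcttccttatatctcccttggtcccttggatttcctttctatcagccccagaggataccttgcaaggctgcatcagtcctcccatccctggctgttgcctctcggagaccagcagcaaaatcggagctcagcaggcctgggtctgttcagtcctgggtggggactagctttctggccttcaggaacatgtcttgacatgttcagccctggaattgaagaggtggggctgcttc
Arl4d: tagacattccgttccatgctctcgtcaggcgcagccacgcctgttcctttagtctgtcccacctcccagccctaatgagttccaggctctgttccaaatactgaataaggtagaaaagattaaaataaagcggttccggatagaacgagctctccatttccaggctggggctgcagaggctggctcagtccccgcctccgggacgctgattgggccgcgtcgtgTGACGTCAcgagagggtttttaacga
Dusp5: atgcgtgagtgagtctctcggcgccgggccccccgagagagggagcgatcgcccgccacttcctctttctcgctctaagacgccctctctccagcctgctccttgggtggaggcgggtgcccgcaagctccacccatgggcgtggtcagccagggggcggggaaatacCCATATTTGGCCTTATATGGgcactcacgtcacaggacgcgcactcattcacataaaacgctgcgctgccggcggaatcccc
Mt1: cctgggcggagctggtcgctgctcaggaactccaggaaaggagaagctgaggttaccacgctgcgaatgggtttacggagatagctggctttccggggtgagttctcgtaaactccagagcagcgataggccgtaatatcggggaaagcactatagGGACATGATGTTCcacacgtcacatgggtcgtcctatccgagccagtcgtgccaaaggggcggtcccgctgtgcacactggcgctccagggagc
Of all 27025 promoters in the table, 1.62% held a CRE, 1.4% a CArG box and 0.381% a GRE. Of the members described next, a CRE was found in 2 of 14 rapid activity promoters with a sequence (Btg2, Dusp1) and 2 of 13 delayed ones (Pcsk1, Scg2), a CArG box in 1 of the delayed ones (Dusp5), and a GRE in 2 of 18 glucocorticoid target promoters (Map3k6, Mt1). The other combinations gave 0: a CArG box or a GRE in the 14 rapid promoters, a GRE in the 13 delayed ones, and a CRE or a CArG box in the 18 glucocorticoid target promoters. Klf10, Sik1, Arc and Egr3 had no entry.

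The rapid activity-dependent genes, 19 in all, each had a lower estimate after 10 injections. The median log2 fold change was -0.94, against 0.0018 over all genes, and the range was -1.89 to -0.39. None of the 19 passed the edgeR test alone. An unadjusted p under 0.05 was found for 15 of the 19 (3.72% of all genes), DESeq2 called 6 (0.455% of all genes), and in 10 of 19 the groups did not overlap (6.27% of all genes). Genes of the list other than Sik1, Arc and Egr3 are named by their known roles, with their values already seen.

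Egr3, a zinc-finger factor of the growth response family, was among the steadiest, with 218, 206 and 229.9 CPM in AP and 156, 108 and 99.8 CPM in CP, a log2 fold change of -0.84 ± 0.14 (edgeR FDR 0.147, DESeq2 FDR 4.95e-07). Its relative Egr1, which is abundant in unstimulated cortex, was at 305, 503 and 564 CPM and 254, 218 and 222 CPM, or -0.98 ± 0.18. Egr2 had the lowest estimate of the list, -1.89 ± 0.52, with 9.65, 19.6 and 18.3 CPM and 9.25, 1.44 and 2.36 CPM. For all 3 Egr genes the groups were apart, though in Egr2 by little, since CP 3 came close to AP 2.

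Fos, a subunit of the AP-1 transcription factor, was measured at 28.2, 65.7 and 50.8 CPM in AP and 31.1, 9.93 and 16.6 CPM in CP, a log2 fold change of -1.33 ± 0.37 (edgeR FDR 0.481). CP 3 was above AP 2, so the groups overlapped. Fosb, its longer-lived relative, was at 13.9, 20.0 and 25.2 CPM and 12.2, 7.79 and 7.27 CPM (-1.12 ± 0.22), and Nr4a1, an orphan nuclear receptor, at 98.6, 235 and 186 CPM and 101, 57.0 and 71.7 CPM (-1.18 ± 0.27). Fosb did not overlap and Nr4a1 did, again through CP 3 and AP 2. Npas4, a neuron-specific factor that responds to calcium entry, had the weakest difference together with Maff: 21.0, 35.6 and 22.8 CPM against 31.6, 13.7 and 15.4 CPM, -0.39 ± 0.29 (edgeR FDR 0.825).

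The 3 summed levels of the list in AP were 1229, 1961 and 1940 CPM and in CP 1019, 632 and 726 CPM. AP 2 was the lowest of its group and CP 3 the highest of its group, with the gap between those neighbours smaller than the range within either group. Without any single library all 19 estimates stayed below 0, the median running from -1.24 to -0.77, and the number called by edgeR from 0 to 13.

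The delayed activity-dependent genes were the second list. All 17 had a lower estimate, with a median log2 fold change of -0.47 and a range from -1.15 to -0.084. By edgeR 0 passed, 14 had an unadjusted p under 0.05, DESeq2 called 11, and 13 did not overlap, where the shares of all genes were 3.72%, 0.455% and 6.27%. Leaving out 1 library gave 0 to 9 edgeR calls, with all 17 estimates below 0 each time.

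Among the secreted factors, Bdnf, the neurotrophin of activity-dependent synapse growth, stood at 29.9, 30.1 and 34.8 CPM in AP and 25.0, 21.8 and 22.3 CPM in CP, a log2 fold change of -0.46 ± 0.087 (edgeR FDR 0.222, DESeq2 FDR 0.00246). Vgf, a neuropeptide precursor that BDNF induces, stood at 272, 285 and 313 CPM and 200.1, 237 and 194 CPM, or -0.46 ± 0.083. Nptx2, a pentraxin that clusters AMPA receptors, stood at 62.1, 57.0 and 54.5 CPM and 46.9, 45.0 and 35.3 CPM, or -0.45 ± 0.10. In none of these 3 did the groups overlap, and for Nptx2 CP 6 lay well below the other CP libraries. Scg2, a granin of dense-core vesicles, and Rgs2, a regulator of G-protein signalling, sat at the small end, with log2 fold changes of -0.14 ± 0.066 and -0.084 ± 0.071.

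Among the transcription factors and phosphatases, Nr4a2 stood at 18.2, 15.7 and 25.7 CPM in AP and 6.21, 8.49 and 12.0 CPM in CP, a log2 fold change of -1.15 ± 0.23, the lowest of the list. Fosl2, an AP-1 subunit, stood at 34.6, 55.7 and 75.3 CPM and 25.6, 25.2 and 25.4 CPM, or -1.12 ± 0.21. The 3 CP libraries were nearly equal for Fosl2, while the AP libraries differed widely, AP 6 being the highest. Dusp5 and Dusp6, phosphatases that switch off ERK, had log2 fold changes of -0.93 ± 0.17 and -0.59 ± 0.15. The summed level of the 17 genes was 1305, 1313 and 1465 CPM in AP and 1020, 1004 and 984 CPM in CP, without overlap.

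Glucocorticoid receptor targets had lower estimates in all 21 members measured, and in 8 of them the groups overlapped. The median log2 fold change was -0.38, the range -0.92 to -0.13, and Cdkn1a was the 1 member that passed the edgeR test. An unadjusted p under 0.05 was found for 16, DESeq2 called 8, and 13 did not overlap, where the shares of all genes were 3.72%, 0.455% and 6.27%. Leaving out 1 library gave 0 to 4 edgeR calls, with all 21 estimates below 0 each time.

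Fkbp5, a co-chaperone that dampens the receptor in a feedback loop, stood at 31.6, 36.4 and 39.8 CPM in AP and 26.2, 26.0 and 23.4 CPM in CP, a log2 fold change of -0.51 ± 0.093 (edgeR FDR 0.213, DESeq2 FDR 0.000820). Mt1, a metallothionein that binds zinc and copper, stood at 108, 110.0 and 110.1 CPM and 88.8, 92.4 and 82.9 CPM, or -0.31 ± 0.060 (edgeR FDR 0.236, DESeq2 FDR 0.00723). Both separated the groups, and Mt1 did so with an SD of only 1.37 CPM among the AP libraries. Ddit4, an inhibitor of mTORC1, was at 37.6, 30.2 and 33.0 CPM and 25.8, 24.1 and 23.3 CPM (-0.46 ± 0.090), Klf9 at 274, 261 and 273 CPM and 209.7, 229 and 231 CPM (-0.27 ± 0.059), and Tgm2, a transglutaminase, at 14.0, 12.6 and 12.5 CPM and 9.74, 9.75 and 8.99 CPM (-0.46 ± 0.092). No CP library reached the AP range in any of the 3.

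Other well known targets were not apart. Sgk1, a kinase that acts on ion channels, was measured at 51.8, 41.0 and 57.3 CPM in AP and 46.2, 40.4 and 50.5 CPM in CP, a log2 fold change of -0.13 ± 0.12 (edgeR FDR 0.876). Tsc22d3, the leucine zipper protein GILZ, was at 68.1, 60.9 and 88.4 CPM and 49.4, 52.7 and 61.7 CPM (-0.41 ± 0.13, FDR 0.517), with CP 6 just above AP 4. Per1, a clock gene that is also an early gene, was at 68.2, 132 and 174 CPM and 104, 79.4 and 89.5 CPM (-0.46 ± 0.25, FDR 0.761), and AP 2 was the lowest of all 6 libraries. The groups overlapped for these 3, and AP 2 was the lowest AP library in the summed level of the rapid genes too.

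**Figure D2:**
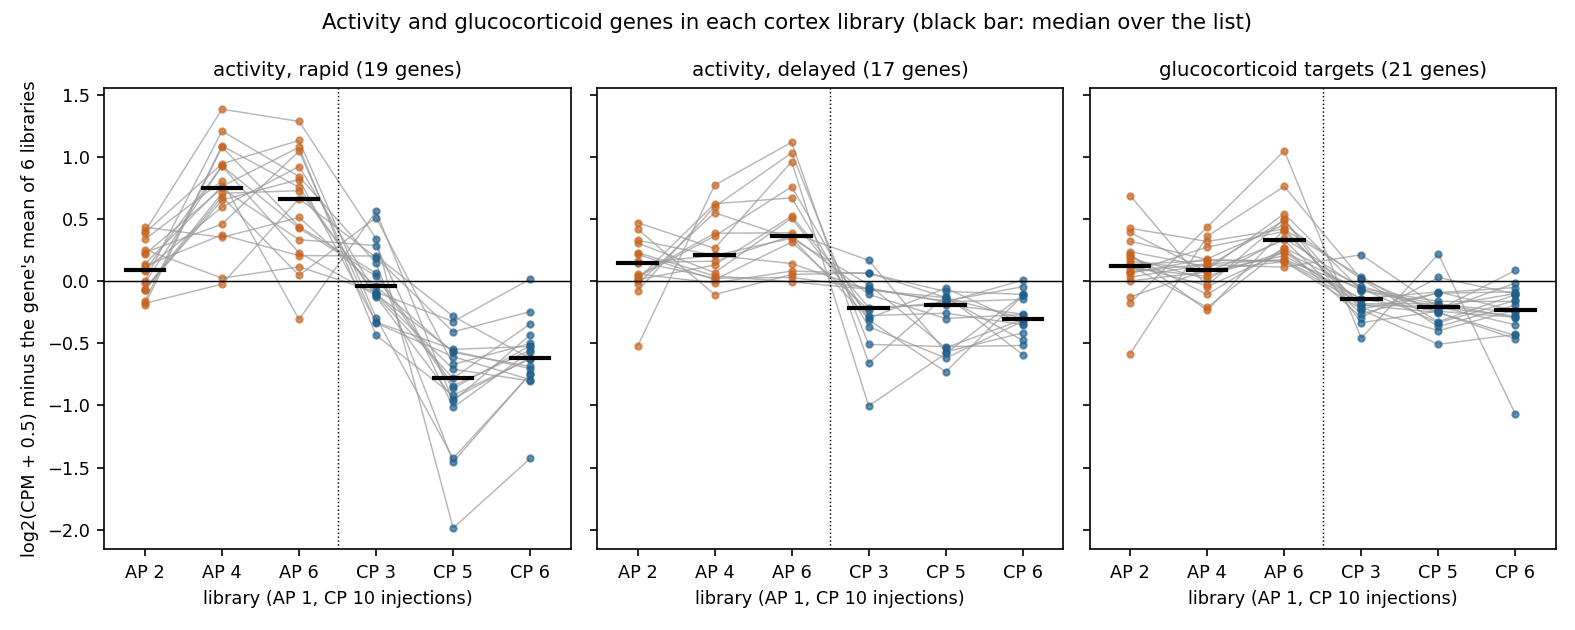
Deviation of each gene of 3 lists from its own mean over the 6 cortex libraries, in log2(CPM + 0.5), with 1 line per gene and the median of each library marked. For the rapid list the medians are 0.090 in AP 2 and -0.041 in CP 3, between the other AP libraries above and the other CP libraries below.

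The receptors of the stress hormones did not share this pattern. Nr3c1, the glucocorticoid receptor, was at 117, 118 and 126 CPM in AP and 116, 117 and 124 CPM in CP (-0.016 ± 0.058), and Nr3c2, the mineralocorticoid receptor, at 34.1, 32.7 and 35.3 and 40.9, 31.0 and 35.4 CPM (0.071 ± 0.10). Of the 9 genes of stress hormone receptors and their partners, 4 were lower, 0 had an unadjusted p under 0.05, and the median was 0.067. The groups overlapped for each of the named receptors.

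Chaperones of the endoplasmic reticulum had lower estimates. In the unfolded protein response list 15 of 16 genes had lower estimates (median -0.20) and 0 passed the edgeR test. An unadjusted p under 0.05 was found for 9, all lower (3.72% of all genes), and 7 did not overlap (6.27% of all genes). Hspa5, the chaperone BiP of the lumen, stood at 255, 194 and 255 CPM in AP and 181, 185 and 175 CPM in CP (-0.38 ± 0.095, edgeR FDR 0.436, DESeq2 FDR 0.0312). Manf, a secreted factor released when calcium in the reticulum drops, was at 36.5, 30.4 and 39.3 and 27.7, 29.3 and 27.0 CPM (-0.34 ± 0.094), and Xbp1, whose spliced RNA encodes a factor of the response, at 57.9, 54.4 and 65.1 and 50.1, 50.6 and 47.4 CPM (-0.26 ± 0.076). AP 4 was the lowest AP library for all 3, and still above every CP library.

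The list of 14 cytosolic chaperones also holds the mitochondrial Hspd1 and Hspe1. Of the 14, 13 had lower estimates (median -0.17), 0 passed the edgeR test and 5 were lower with an unadjusted p under 0.05 (3.72% of all genes). Hspa1b, a stress-inducible Hsp70, was at 60.4, 52.9 and 61.0 CPM in AP and 45.1, 38.2 and 27.8 CPM in CP (-0.65 ± 0.14), and Hspa1a, its near-identical copy with which it shares reads, at 57.5, 52.6 and 60.2 and 45.6, 40.2 and 29.8 CPM (-0.56 ± 0.13). Hspb1, a small heat shock protein, had -0.67 ± 0.17, against -0.023 ± 0.060 for the constitutive Hsp90ab1. Its stress-inducible relative Hsp90aa1 was the 1 member with a higher estimate (0.012 ± 0.073). The 2 cold-inducible RNA-binding proteins were higher: Cirbp at 37.0, 44.4 and 37.3 CPM against 46.3, 46.7 and 47.3 CPM (0.24 ± 0.079, edgeR FDR 0.557), without overlap, and Rbm3 with 0.18 ± 0.10, with overlap.

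Neuropeptide estimates ran from -0.49 to 0.54, the highest being that of Cartpt (unadjusted edgeR p 0.0697), the 1 member with a higher estimate. Of 13, 12 had lower estimates, with a median of -0.084, 0 edgeR calls and 3 unadjusted p-values under 0.05, all lower (3.72% of all genes). Those 3 were Cck, the peptide of many cortical neurons (269.8, 271 and 259 CPM against 234, 245 and 198 CPM, -0.24 ± 0.077), Penk, the enkephalin precursor (43.4, 41.2 and 57.0 against 41.6, 32.9 and 26.3 CPM, -0.49 ± 0.16), and Crh, the releasing hormone of the stress axis, which cortical interneurons also make (6.02, 5.86 and 5.01 against 5.29, 3.86 and 3.48 CPM, -0.42 ± 0.16). Only Cck kept the groups apart.

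Of 20 monoamine receptors 12 were lower (median -0.10) and none was called by edgeR. An unadjusted p under 0.05 was found for 7, all lower (3.72% of all genes), of which Adra1d, Adra2a, Adra2c and Adrb1 are adrenergic. Adra2a stood at 14.6, 14.7 and 13.2 CPM in AP and 12.5, 9.88 and 10.3 CPM in CP (-0.38 ± 0.11), Adra1d at 52.6, 59.2 and 51.2 and 48.3, 44.3 and 39.9 CPM (-0.30 ± 0.085), and Adra2c at 19.8, 21.0 and 22.2 and 18.6, 16.4 and 13.1 CPM (-0.39 ± 0.12). The groups did not overlap in these 3, and did in the other monoamine receptors with a p under 0.05.

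The postsynaptic scaffold list had lower estimates in all 15 members, but small ones: the median was -0.10, and 4 had an unadjusted p under 0.05 (3.72% of all genes). Beside Homer1 these were Dlgap3 (-0.25 ± 0.075), Shank1 (-0.20 ± 0.073) and Shank2 (-0.18 ± 0.072). Receptor subunits were close to 0, with medians of 0.0083 for 15 ionotropic and 0.076 for 7 metabotropic glutamate receptors and 0.0093 for 12 GABA-A subunits. Clock genes showed no shared direction: 10 of 17 were lower and the median was -0.065. The core pair Bmal1 (-0.065 ± 0.076) and Clock (-0.13 ± 0.062) and the output gene Dbp (0.19 ± 0.10) differed little, and the largest spread was within AP, where Per2 ran 26.1, 38.5 and 77.1 CPM.

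Beside the cold-inducible pair, 2 lists had higher estimates in every member. All 8 abundant noncoding RNAs were higher (median 0.31), 0 by the edgeR test, 5 with an unadjusted p under 0.05 (3.41% of all genes), and 3 without overlap (6.56%). Snhg11, a neuronal lncRNA, stood at 995, 1073 and 1411 CPM in AP and 1565, 1546 and 1469 CPM in CP (0.40 ± 0.11, edgeR FDR 0.474, DESeq2 FDR 0.0533). Meg3, the maternally expressed RNA of the imprinted Dlk1 locus, stood at 1830, 2074 and 2963 CPM and 3287, 3412 and 2876 CPM (0.48 ± 0.14), and Rian and Mirg of the same locus had 0.19 ± 0.061 and 0.52 ± 0.20. For Meg3 the groups overlapped, because AP 6 was above CP 6, and AP 6 was the highest AP library for all 4. Meg3, Rian and Mirg come from 1 imprinted transcription unit and are not separate observations.

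The 13 mitochondrially encoded messages were the other list, all higher by a little (median 0.12, 0 edgeR calls). An unadjusted p under 0.05 was found for 3 (3.41% of all genes were higher with such a p). The share of counts they took was 5.07% to 5.34% in AP and 5.19% to 5.87% in CP, and CP 5 lay within the AP range. Nuclear genes of the respiratory chain did not follow, with 15 of 20 lower and a median of -0.031. Cholesterol synthesis genes, with 13 of 19 higher and a median of 0.069, and ribosomal protein genes, with 51 of 78 lower and a median of -0.020, were near 0. Histone and DNA modifying enzymes were split, 9 of 23 lower, with Hdac10 the highest (0.39 ± 0.10) and Tet3 the lowest (-0.40 ± 0.13).

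Of 16 lists of cell type markers, 8 had medians within 0.1 of 0: -0.028 for 9 pallial excitatory neuron genes, 0.017 for 14 layer markers, -0.079 for 14 interneuron genes, -0.10 for 12 astrocyte genes, -0.0063 for 13 microglial genes, -0.092 for 11 endothelial genes, -0.057 for 9 mural genes and -0.011 for 15 myelin genes. The median was -0.048 for 8 genes of the perineuronal net, a matrix around interneurons. Of the endothelial genes 4 of 11 were lower with an unadjusted p under 0.05 (3.72% of all genes), 4 did not overlap on the lower side (6.27%), and DESeq2 called 1 lower (0.455%). Of the astrocyte genes 2 of 12 were lower and 0 higher with such a p, 3 did not overlap on the lower side, and DESeq2 called 1 lower. The smallest p belonged to Slc2a1 among the endothelial genes (-0.36, edgeR FDR 0.394) and to Gjb6 among the astrocyte genes (-0.37, edgeR FDR 0.210). The 8 other lists had medians farther from 0. The summed level of 14 meningeal fibroblast genes was 172, 175 and 149 CPM in AP and 163, 132 and 89.5 CPM in CP (13 lower, 6 with an unadjusted p under 0.05 against 3.72% of all genes, median -0.37). That of 12 striatal projection neuron genes was 299.7, 274 and 328 and 245, 276 and 246 CPM (12 lower, 3 with such a p, median -0.27). Both ranges overlapped between the groups.

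All 9 choroid plexus genes were lower (median -0.83), and this rested on 1 library: Ttr, the transthyretin of the choroid plexus, was at 4.65, 24.8 and 114 CPM in AP and 8.18, 12.1 and 9.86 CPM in CP, and without AP 6 the list's median was -0.043. Smaller lists gave medians of -0.35 for 5 blood genes, -0.13 for 6 thalamic, 0.23 for 6 dentate granule, -0.12 for 4 ependymal and -0.11 for 8 oligodendrocyte precursor genes. Interferon response genes (-0.22, 0 of 11 with a p under 0.05), inflammation genes (-0.42, 1 of 9) and p53 targets (-0.10, 2 of 10, 1 of them Cdkn1a) completed the lists. Those with such a p were all lower, as were 3.72% of all genes. The part of these cell types in the differences of the activity and glucocorticoid genes was not tested.

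**Figure D3:**
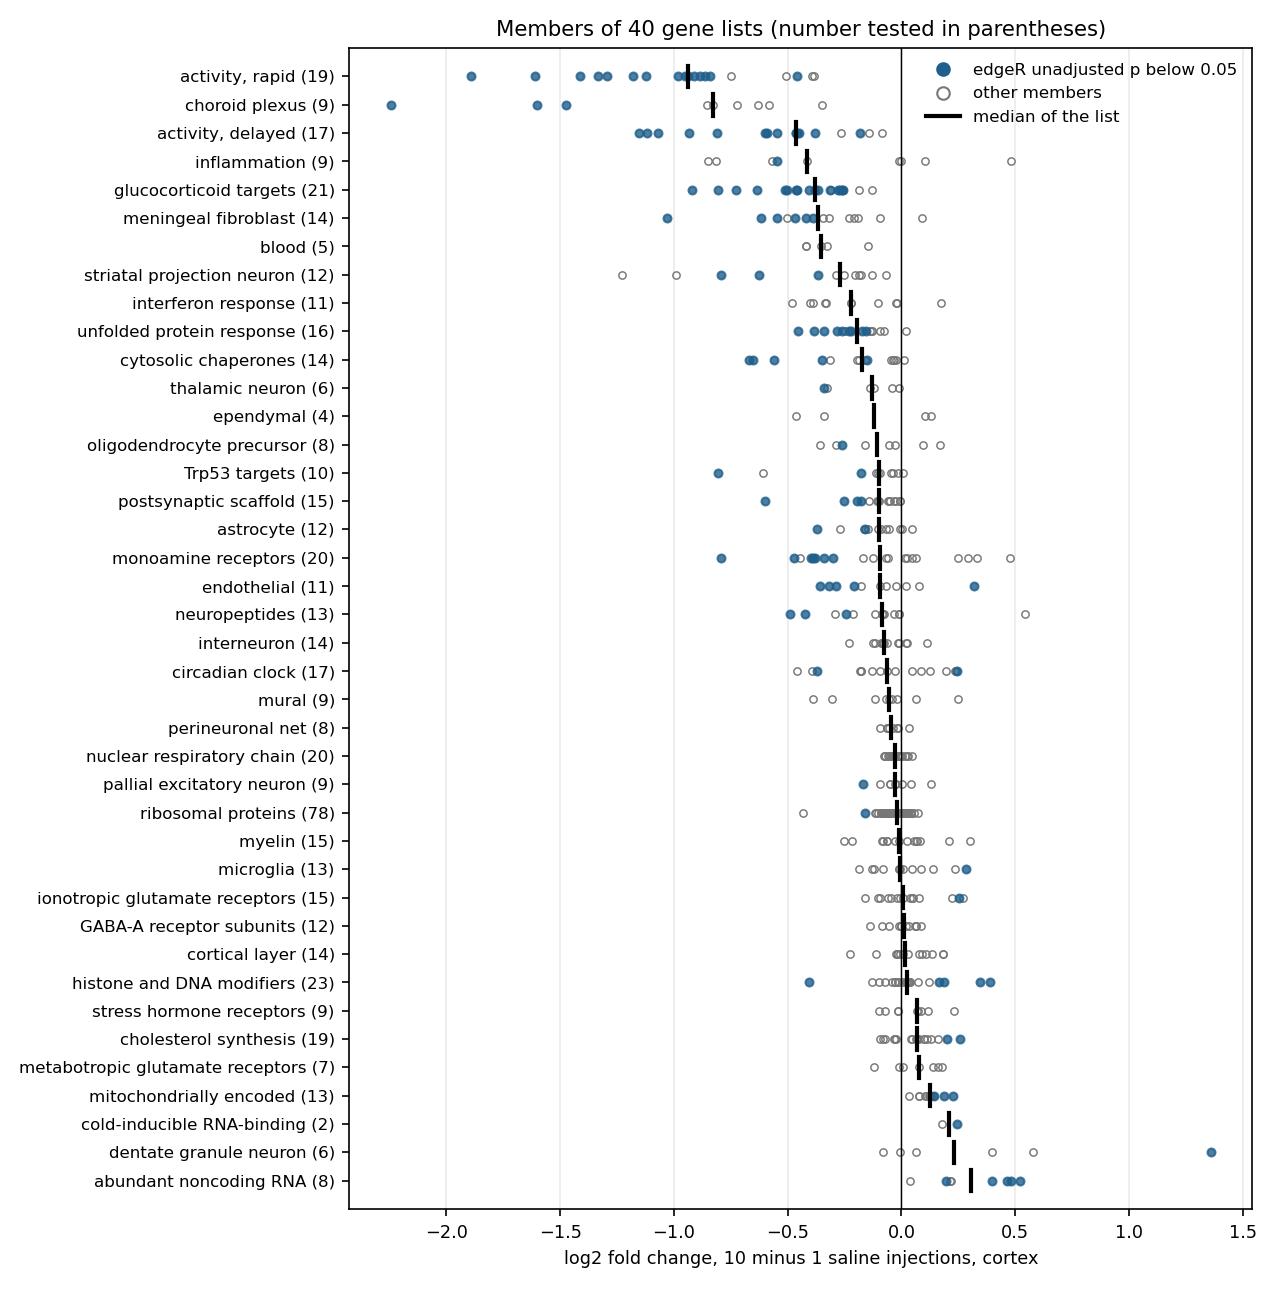
Log2 fold change of CP over AP for each tested member of the 40 gene lists (points) with the median of each list, on a linear log2 axis. The rapid, delayed and glucocorticoid lists have all their points below 0, and so do the postsynaptic scaffold (15), striatal projection neuron (12), choroid plexus (9), thalamic (6) and blood (5) lists. The 8 noncoding RNAs, the 13 mitochondrially encoded messages and the 2 cold-inducible genes have theirs above.

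Isoform counts gave more calls, which are not independent of each other, since isoforms of 1 gene share reads. Of 129605 isoforms, 152 fell (0.117%) and 254 rose (0.196%) at an edgeR FDR of 0.1, from 70 genes, and no gene had isoforms in both directions. The lncRNA AI480526 alone gave 236 of the higher isoforms out of 250 tested, and 18 higher isoforms came from other genes. Its most significant isoform, AI480526-208, stood at 3.02, 3.17 and 3.62 CPM in AP and 5.85, 6.38 and 5.44 CPM in CP, a log2 fold change of 0.85 ± 0.10 (edgeR FDR 0.0228).

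On the lower side Cdkn1a-201 stood at 5.34, 4.86 and 5.22 CPM in AP and 3.22, 2.66 and 2.89 CPM in CP, a log2 fold change of -0.82 ± 0.095 (edgeR FDR 0.0228), and all 4 isoforms of Cdkn1a and all 6 of Klf10 were called. Of the 70 genes (0.273% of 25649 with a tested isoform), 21 belong to the 3 lists above, which hold 57 of the 25649: 8 rapid, 8 delayed and 5 glucocorticoid. Genes with more isoforms had more chances of a call. The lists were chosen with earlier results of these data known, so these counts are not a test of the lists. All 11 isoforms of Bdnf were called, with log2 fold changes from -0.48 to -0.47, as were all 7 of Fosb and all 4 of Egr3. The annotated Bdnf isoforms share their last exon, and a pair that overlaps several isoforms was counted for each.

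Homer1 isoforms are described by where they end, a choice made after their values were seen, and isoforms of other members, such as Fkbp5, had unequal estimates too. The long forms carry a coiled coil that joins scaffolds, and the short, activity-induced form ends early and lacks it. The 5 isoforms that end before the distal exons, by 93523252 on chromosome 13, all fell, with log2 fold changes from -0.86 to -0.54. Of the 7 that end at the distal exons, at 93538778 or beyond, the estimates ran from -0.41 to -0.29 and 1 fell, Homer1-203 (-0.37 ± 0.077, edgeR FDR 0.0990). Homer1-204, the lowest of the early-ending set, stood at 42.5, 34.3 and 53.0 CPM in AP and 23.2, 25.4 and 22.7 CPM in CP (-0.86 ± 0.12, edgeR FDR 0.0228). The 2 sets do not overlap in their estimates, though whether the difference between them exceeds the replicate error was not tested. The number of isoform calls was 12 without AP 4, 0 without CP 5, 203 without AP 2, 253 without CP 6, 850 without AP 6 and 1255 without CP 3.

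**Figure D4:**
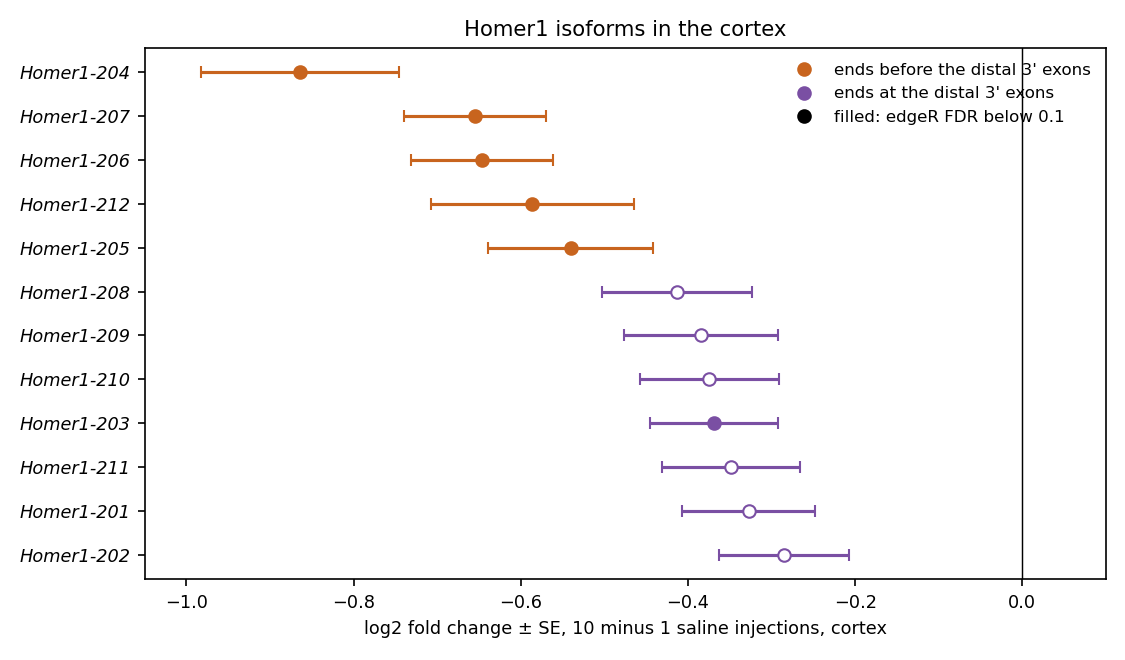
Log2 fold change of CP over AP with its standard error for the 12 tested Homer1 isoforms, grouped by where they end. The 5 early-ending isoforms lie at -0.54 or lower and the 7 that reach the distal exons at -0.29 to -0.41.

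The same contrast was available in ethanol-injected mice, which share no library with the saline arm. There edgeR called 0 of 25603 genes (0%), with 2224 at an unadjusted p under 0.05 and 109 calls by DESeq2. Among the genes tested in both arms, 5.11% were lower with a p under 0.05, and 51.8% had a lower estimate. The rapid list was lower in 18 of 19 genes, with a median of -0.39 and 4 unadjusted p-values under 0.05. The delayed list was lower in 12 of 17, with a median of -0.074 and 2 such p-values. The glucocorticoid list was lower in 20 of 21, with a median of -0.51 and 16 such p-values.

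Cdkn1a had close estimates in both arms. With ethanol it ran from 19.7, 23.9 and 23.1 CPM to 10.7, 8.97 and 15.7 CPM (AE 2, 4 and 5, then CE 1, 5 and 6), a log2 fold change of -0.92 ± 0.18 (edgeR FDR 0.518), and the difference of the arms was 0.11 ± 0.22 (edgeR FDR 0.901). For Klf10 the estimates lay apart. It ran 38.9, 33.9 and 27.0 CPM and 22.2, 25.4 and 49.2 CPM with ethanol, -0.040 ± 0.26, with a difference of -0.70 ± 0.32 (edgeR FDR 0.600). In the ethanol arm CE 6 was the highest of the 6 libraries for Klf10, and for Arc it was far above the other CE libraries (335, 259 and 177 CPM and 34.6, 77.6 and 392 CPM). Fkbp5 (-0.81 ± 0.16), Sgk1 (-0.75 ± 0.13) and Tsc22d3 (-0.79 ± 0.12) were each lower after 10 than after 1 ethanol injection, without overlap of the groups.

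When the difference between the arms was itself fitted, 0 of 26540 genes passed (0%), with 2174 at an unadjusted p under 0.05 and 21 calls by DESeq2. The median difference, saline minus ethanol, was -0.67 for the rapid list (15 of 19 below 0), -0.43 for the delayed list (16 of 17) and 0.085 for the glucocorticoid list (7 of 21). The number of members with an unadjusted p under 0.05 was 3 of 19, 9 of 17 and 2 of 21, beside 2174 of all 26540 genes. The smallest edgeR FDR was 0.600. Among the delayed genes Nrn1, a surface protein of growing axons and dendrites, had a difference of -0.35 ± 0.10 (edgeR FDR 0.600), and in the rapid list Egr3 had -0.75 ± 0.25 (edgeR FDR 0.600). Sgk1 differed the other way, by 0.62 ± 0.19 (edgeR FDR 0.600). Their unadjusted p-values were under 0.05, and none passed after adjustment over all genes.

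In dHPC, the saline contrast called 1 of 26167 genes by edgeR (0.00382%), with 2014 at an unadjusted p under 0.05 and 144 calls by DESeq2. AP mice 2 and 4 and CP mice 5 and 6 gave both tissues, so the regions are not independent sets of animals. The called gene was Pisd-ps1, a pseudogene of phosphatidylserine decarboxylase, which rose from 8.79 ± 0.276 to 16.0 ± 0.541 CPM (SD, n = 3), a log2 fold change of 0.86 ± 0.075 (SE, edgeR FDR 0.0825), and had 0.60 in cortex (edgeR FDR 0.503). As a copy of a gene it is uncertain, since pairs that map to several places were counted for each.

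The rapid list was lower in dHPC in 18 of 19 genes (median -0.48, 8 with an unadjusted p under 0.05, where 3.79% of the genes tested in both regions were lower with such a p and 49% had a lower estimate). The delayed list was lower in 10 of 17 (median -0.11) and the glucocorticoid list in 14 of 21 (median -0.082). Cdkn1a was at 6.72, 6.97 and 6.34 CPM and 6.42, 6.00 and 4.11 CPM in dHPC (-0.27 ± 0.17), and Klf10 at 22.9, 28.9 and 24.6 CPM and 27.9, 19.8 and 24.0 CPM (-0.089 ± 0.13). Myelin genes had lower estimates in dHPC in all 15 members (median -0.32), with 14 unadjusted p-values under 0.05. In cortex their median of -0.011 ran from -0.23 to 0.21 when 1 library was left out, with 2 to 14 of the 15 lower.

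The fitted difference between the regions, cortex minus dHPC, passed for 0 of 27224 genes (0%), with 1735 at an unadjusted p under 0.05 and 34 calls by DESeq2. Its median was -0.55 for the rapid list (17 of 19 below 0), -0.50 for the delayed list (17 of 17) and -0.30 for the glucocorticoid list (18 of 21). For Cdkn1a the difference was -0.54 ± 0.19 (edgeR FDR 0.773), for Klf10 -0.66 ± 0.17 (edgeR FDR 0.773), for Egr3 -0.83 ± 0.21 (edgeR FDR 0.773) and for Vgf -0.55 ± 0.14 (edgeR FDR 0.773). The smallest edgeR FDR among the members of the 3 lists was 0.773.

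**Figure D5:**
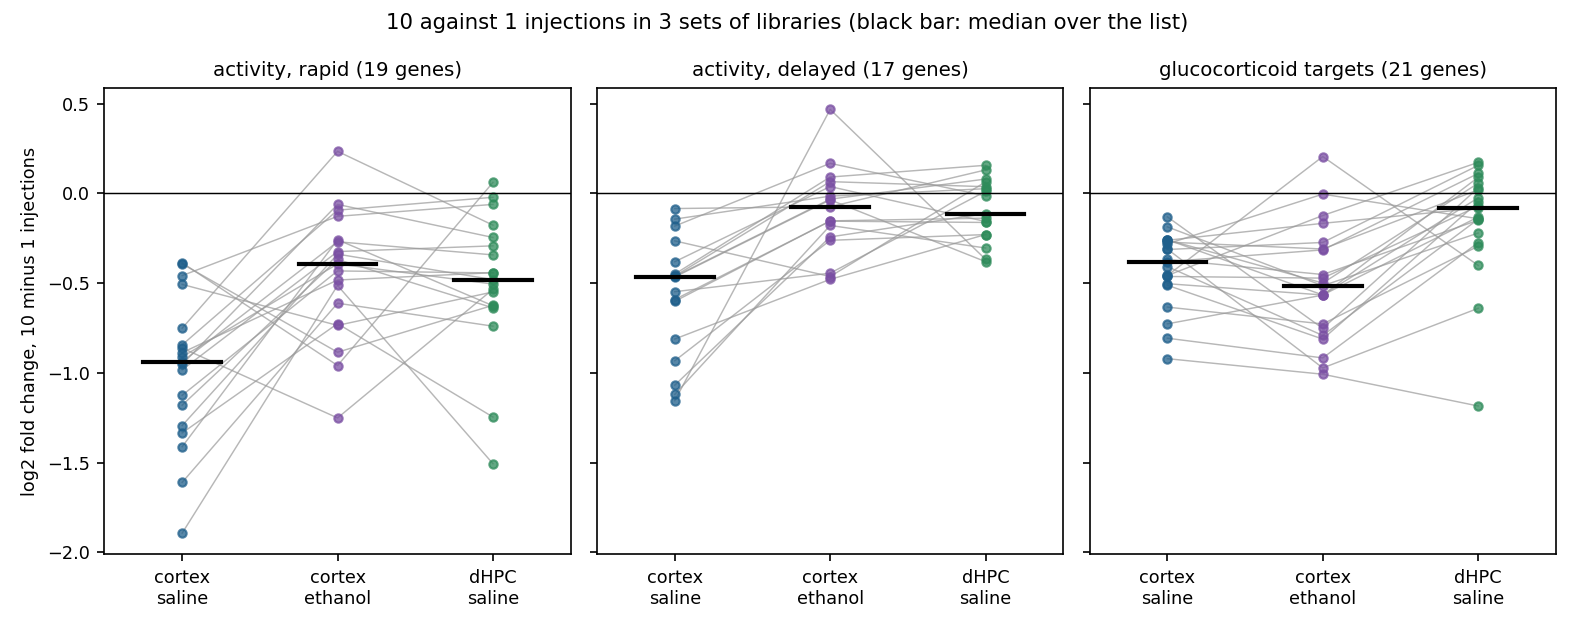
Log2 fold change of 10 over 1 injections for the members of the rapid, delayed and glucocorticoid lists in the saline cortex, the ethanol cortex and the saline dHPC, with list medians. The medians are -0.94, -0.39 and -0.48 for the rapid list, -0.47, -0.074 and -0.11 for the delayed list, and -0.38, -0.51 and -0.082 for the glucocorticoid list.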

How the data were processed

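Poly(A) RNA of 18 libraries of 1 sequencing batch was used: cortex after 1 and 10 saline or ethanol injections, and dHPC after 1 and 10 saline injections, 3 mice a group. The authors made the counts before depositing them: reads were trimmed with Cutadapt (5.0), aligned to GRCm39 with STAR (2.7.10a) and counted on exons with featureCounts (2.0.6), as the paper's methods and the submitters' processing notes give it. The methods call the annotation NCBI RefSeq, but the file they name carries release number 113 and the tables hold Ensembl gene identifiers. Counting was set to reverse-stranded, whereas the kit of the cortex and dHPC libraries does not keep strand, and multi-mapping and multi-overlapping pairs added 1 to every feature they matched. The deposited tables give raw counts for 56415 genes and 218795 isoforms.

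From these, edgeR's quasi-likelihood test (4.0.16, limma 3.58.1, R 4.3.3, TMM) was run on features that reached 5 counts in 2 or more libraries of any 1 group, with Benjamini-Hochberg adjustment over all features tested and a threshold of 0.1, and tested on simulated data. DESeq2 (1.42.0), the tool of the study, was an alternative, beside DESeq2 size factors, other count filters, a correction for GC content and exon length, genes free of opposite-strand exons, 1 fit of all 4 cortex groups, and leaving out each library. Tables and plots used Python (3.11.15), pandas (2.3.3), numpy (2.4.6) and matplotlib (3.10.9). Standard errors (SE) are those of the fitted log2 fold changes. No pair of the 6 saline cortex libraries agreed within sampling noise. Each gene's squared difference between 2 libraries was divided by its counting variance, and the median over 16371 genes was 2.60 to 4.44. Gene counts per cortex library ran from 44603391 to 56467862 in the saline arm.

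Genes were named among those averaging 10 counts or more whose groups did not overlap, by the 10 smallest p-values in each direction (passed or not). Candidates from each of 40 gene lists were every called member or else the member with the smallest p, and up to 2 more. Not all of these candidates are in the text. For many lists, such as most of those of cell types, only counts, medians or summed levels are given. Other members of the rapid, delayed and glucocorticoid lists, receptors, chaperones, clock genes, noncoding RNAs and Ttr were picked after their values were seen. The members, the lists and the contrast were chosen with earlier results of these data known. Promoters were taken from RefSeq (GRCm38.p6), a different build from the count tables, and genes were matched by symbol.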

Additional observations from a re-analysis of the deposited data

How the results depend on the processing

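Cdkn1a and Klf10 kept their direction under every alternative that tested them. Both passed with DESeq2, with DESeq2 size factors in edgeR, with no count filter and without AP replicate 2, AP replicate 6 or CP replicate 3, and missed the threshold in the other fits that could test them. For 10 against 1 saline injections in cortex, the 2 edgeR calls became 173 with DESeq2, 336 with no count filter, and 0 with at least 10 counts in every sample, with the GC and length correction, among genes free of opposite-strand exons (11679 tested) and in 1 fit of all 4 cortex groups. Leaving out 1 library gave 0 to 169 calls, the cause of which was not tested. DESeq2 called 109 genes in the ethanol arm, 144 in dHPC, 21 for the difference between the arms, 34 for the difference between the regions and 874 isoforms, where edgeR called 0, 1, 0, 0 and 406. Leaving out 1 library gave 0 to 70 calls in the ethanol arm (70 without CE replicate 6, 16 without CE replicate 1), 0 in each case in dHPC, 0 to 2 for the difference between the arms and 0 to 1255 for isoforms.

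The mouse was used as a replicate block for the difference between regions, in the 4 mice that gave both tissues. The fit with the block called 0 of 26071 genes, and the fit without it on the same mice, chosen after seeing the data, also called 0. Deviations of the 2 regions of a mouse correlated at 0.13 in AP and 0.0733 in CP over 18474 genes. No paired analysis was possible for the other comparisons because the mice of their groups differ.

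Genes given with near-zero differences changed sign when 1 library was left out: Hsp90aa1 ran from -0.037 to 0.079, Hsp90ab1 from -0.059 to 0.021, Nr3c1 from -0.042 to 0.014, Nr3c2 from -0.035 to 0.16 and Per2 from -0.47 to 0.37 on the log2 scale. The common biological coefficient of variation was 0.107 in cortex with 3 mice a group.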

Other observations

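The abundant noncoding RNAs had estimates of opposite sign in the arms. All 8 had higher estimates after 10 than after 1 saline injection, and all 8 had lower estimates after 10 than after 1 ethanol injection (median -0.18). In the ethanol arm 1 of the 8 had an unadjusted p under 0.05, where 5.11% of genes tested in both arms were lower with such a p. The ethanol groups were apart for 0 of the 8. Meg3, Rian and Mirg are not separate observations. Meg3 ran 1830, 2074 and 2963 and 3287, 3412 and 2876 CPM with saline, and 2178, 3023 and 3459 and 2351, 2361 and 1633 CPM with ethanol. The fitted difference, saline minus ethanol, had an unadjusted p under 0.05 in 6 of the 8, beside 2174 of all 26540 genes. It was 0.93 ± 0.26 for Meg3 (edgeR FDR 0.600), and no single gene passed.

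Xlr3b was below 1 CPM in the 3 CP cortex libraries and in none of the other 9 cortex libraries. It ran 5.19, 4.27 and 2.24 CPM after 1 and 3.60, 2.28 and 4.99 CPM after 10 ethanol injections, and the difference between the arms was -3.28 ± 0.66 (edgeR FDR 0.600).

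Of the 118 lower calls that DESeq2 made, 25 (21.2%) belonged to the rapid, delayed and glucocorticoid lists, and these were 43.9% of the 57 genes of the lists, where DESeq2 called 0.455% of all genes lower. Because the lists were chosen with earlier results of these data known, these shares are not a test of the lists. The 55 higher calls of DESeq2 held 44 protein-coding genes and 7 lncRNAs.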
